A study of Mus musculus with 6 samples.

Results

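The B lymphocyte genes Cd79a, Cd79b, Ms4a1, Cd22, Blk, Bank1, Pax5 and Ebf1 were followed through 6 mouse T cell libraries. These 8 genes, of the 24223 with a row in the count data, were chosen from their measured level, because B cell genes had stood highest in both Th17 libraries, so every value of these genes that sets Th17 against another cell type is given here as a description without a p-value. Naive CD4+ T cells (Naive) were taken with a CD4+CD62L+ isolation kit from pooled lymph nodes and spleens of C57BL/6 mice that were 1 to 2 months old. Th17 and Th1 cells were cultured from such naive cells to day 5 with anti-CD3 and anti-CD28. The Th17 culture also received anti-IL-4, anti-IFN-γ, TGF-β, IL-6, IL-1β and IL-23, and the Th1 culture received anti-IL-4, IL-12 and IL-2. Each cell type had 2 libraries, described by the study as independent biological replicates, and the sources used here name no sort of the cultures before RNA was extracted. The isolation kit selects CD4+ CD62L+ cells and would remove most B cells from the starting cells. By flow cytometry the study found the isolated cells mostly but not wholly pure, and it does not state how many B cells remained. The libraries were made from polyadenylated RNA of bulk cells, so that fewer B cells and less of a transcript in each cell cannot be told apart.

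B cells sense antigen through an immunoglobulin whose signal is carried by the CD79A and CD79B chains. Blk, a Src family kinase, and Bank1, an adaptor, act just below that receptor, while Cd22 is an inhibitory receptor that dampens it and Ms4a1 encodes CD20 on mature B cells. Ebf1 and Pax5 are transcription factors that establish and keep B cell identity, and Ebf1 acts ahead of Pax5. CD4+ T cells normally express little of this program, and the genes are commonly read as B cell markers in spleen and lymph node, although Blk is also known from γδ T cells that make IL-17.

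Depth ran from 17742158 to 69080017 counts per library, replicate 1 being the deeper one in each cell type, and 3 counts, taken as the limit of detection, stood for 0.0434 to 0.169 CPM (the share of a gene in all gene counts of the library, scaled to 1000000 counts). All 12 T cell markers examined, among them Cd3d, Cd3g, Cd4, Lck and Lat, had counts, and their sum lay between 4808 and 6540 CPM in the 6 libraries. None of the 12 was called in any of the 3 comparisons. The 8 B cell genes were present at a small fraction of that level. Their sum reached 17.1 and 14.5 CPM in the Naive libraries, 29.2 and 20.6 CPM in Th17, and 6.05 and 6.49 CPM in Th1, which is between 0.113% and 0.608% of the T cell marker sum of the same library. Both Th17 sums were above both Naive sums, and both Th1 sums were below all others. The means were 15.8 ± 1.89, 24.9 ± 6.12 and 6.27 ± 0.307 CPM (SD, n = 2 libraries each).

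The single genes did not all follow the pattern for which they were chosen. Both Th17 libraries stood above the other 4 libraries for 4 of the 8 genes, Ms4a1, Blk, Bank1 and Ebf1, and 22.7% of the 13607 genes tested did so. For Cd79a, Cd79b and Cd22 the Th17 and Naive libraries overlapped, and for Pax5 one Th17 library lay below one Th1 library. Just inside the pattern was Bank1, with 2.65 CPM in the lower Th17 library and 2.45 CPM in the higher Th1 library, and just outside it by ratio was Cd79a, with 3.49 CPM in the lower Th17 library and 4.43 CPM in the higher Naive library. Both Th1 libraries were below both Naive libraries for Cd79a, Cd79b, Cd22 and Blk, a pattern shown by 40.8% of the genes tested.

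**Figure D1:**
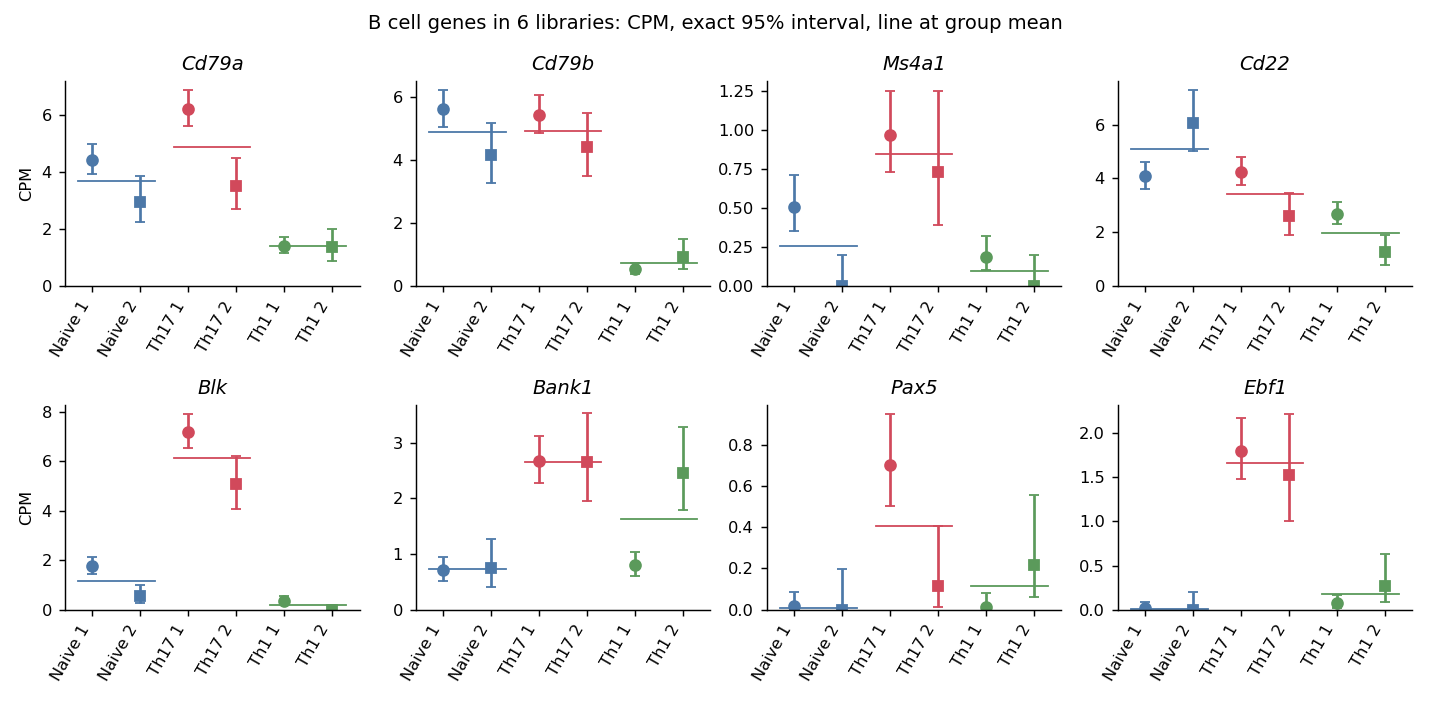
CPM of each of the 8 genes (y axis, a scale of its own for each gene) in the 6 libraries (x axis), with circles for replicate 1, squares for replicate 2, bars for the exact 95% binomial interval and a horizontal line at the mean of each cell type. Blk and Ebf1 stood highest in both Th17 libraries, Cd79a and Cd79b were about level in Naive and Th17 and lowest in Th1, and Cd22 was highest in a Naive library at 6.07 CPM.

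The start regions of Cd79a, Cd22, Bank1 and Ebf1 are shown because they hold short motifs of B lineage factors, Ebf1 itself among those factors. RefSeq (build GRCm38.p6) gave windows of 300 bases, 250 before and 50 after the start site, for 5 of the 8 genes, 6 windows in all because Ebf1 has 2. A total of 4 motifs were searched on both strands: CCCNNGGG, the core letters bound by EBF factors; CAGGTG, an E-box bound by E proteins; GAGGAA, core letters bound by PU.1; and ATTTGCAT, the octamer. The windows lie at chr7:24897247-24897546 on the plus strand (Cd79a), chr7:30878979-30879278 on the minus strand (Cd22), chr3:136326017-136326316 on the minus strand (Bank1) and chr11:44619978-44620277 on the plus strand (Ebf1, the second of its windows). Capitals mark the motif letters, written on the strand of the gene from 5′ to 3′, so that a motif on the other strand appears as its complement.
Cd79a: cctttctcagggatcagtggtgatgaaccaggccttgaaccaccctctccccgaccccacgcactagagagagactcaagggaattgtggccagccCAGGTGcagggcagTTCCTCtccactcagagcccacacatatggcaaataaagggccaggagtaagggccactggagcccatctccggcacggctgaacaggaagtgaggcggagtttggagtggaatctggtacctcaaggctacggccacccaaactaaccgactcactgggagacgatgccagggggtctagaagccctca
Cd22: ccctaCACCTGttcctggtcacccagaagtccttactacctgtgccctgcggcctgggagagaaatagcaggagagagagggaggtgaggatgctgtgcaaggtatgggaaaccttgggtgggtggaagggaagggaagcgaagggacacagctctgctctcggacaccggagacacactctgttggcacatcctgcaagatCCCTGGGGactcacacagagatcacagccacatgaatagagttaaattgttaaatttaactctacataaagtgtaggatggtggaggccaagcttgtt
Bank1: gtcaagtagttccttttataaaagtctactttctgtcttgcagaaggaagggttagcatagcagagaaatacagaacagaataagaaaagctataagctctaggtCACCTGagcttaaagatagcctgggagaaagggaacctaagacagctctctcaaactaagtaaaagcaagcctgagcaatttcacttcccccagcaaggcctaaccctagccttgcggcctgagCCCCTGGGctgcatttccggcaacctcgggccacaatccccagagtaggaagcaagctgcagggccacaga
Ebf1: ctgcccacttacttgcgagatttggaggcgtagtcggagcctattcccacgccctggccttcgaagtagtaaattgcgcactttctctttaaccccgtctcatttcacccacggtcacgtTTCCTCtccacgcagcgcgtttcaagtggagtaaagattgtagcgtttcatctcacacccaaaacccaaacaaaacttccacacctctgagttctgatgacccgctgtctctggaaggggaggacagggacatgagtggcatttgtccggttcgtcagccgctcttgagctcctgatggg

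The Cd22 and Bank1 windows each held CCCNNGGG, with the first base at -48 and -21 from the start site, and each held CAGGTG on the other strand, at -245 and -145. The Cd79a window held CAGGTG at -154 and GAGGAA on the other strand at -140. The second Ebf1 window held GAGGAA on the other strand at -130, while the first Ebf1 window and the Pax5 window held none of the 4 motifs, and the octamer was in none of the 6. These letters are common: of 32851 mouse windows, 13.67% held CCCNNGGG, 20.21% CAGGTG, 28.28% GAGGAA and 1.735% ATTTGCAT. A match is therefore a description of the sequence and not evidence of binding.

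The receptor chains, CD79A and CD79B, are taken first (gene positions here and below are those of GENCODE vM21, build GRCm38). Cd79a (chr7:24897381-24902197, plus strand) had 4.43 and 2.96 CPM in Naive, 6.22 and 3.49 CPM in Th17, and 1.40 and 1.36 CPM in Th1. The Naive and Th17 libraries overlapped, and both Th1 libraries were below them. Cd79b (chr11:106311341-106314762, minus strand) had 5.60 and 4.14 CPM in Naive, 5.44 and 4.40 CPM in Th17, and 0.521 and 0.927 CPM in Th1. The Naive and Th17 means of Cd79b were 4.87 ± 1.03 and 4.92 ± 0.735 CPM, whereas the Th1 mean was 0.724 ± 0.287 CPM (SD, n = 2). Its Naive mean was thus 6.73 times the Th1 mean, and that of Cd79a was 2.67 times the Th1 mean.

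Of the surface proteins, Ms4a1 (chr19:11249675-11266241, minus strand) was low throughout. Its values were 0.509 and 0 CPM in Naive, 0.967 and 0.733 CPM in Th17, and 0.188 and 0 CPM in Th1. Both Th17 libraries were above the rest, and in the shallower Naive and Th1 libraries no count was seen, which allows up to 0.161 and 0.164 CPM at 3 counts. Cd22 (chr7:30865402-30880342, minus strand) had 4.09 and 6.07 CPM in Naive, 4.25 and 2.59 CPM in Th17, and 2.69 and 1.25 CPM in Th1. Here the order of the means was Naive, Th17 and Th1, with 5.08 ± 1.40, 3.42 ± 1.17 and 1.97 ± 1.02 CPM, and neighbours in that order overlapped. The exons of Cd22 overlap an antisense gene, Gm29439. The labels name Smart-seq2, whose cDNA carries no mark of strand, whereas the supplementary code counts reads as reverse-stranded. Whether Gm29439 reads entered the Cd22 count is thus not known.

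The signalling genes below the receptor stood higher in Th17 than in Naive. Blk (chr14:63372836-63417037, minus strand) had 1.76 and 0.537 CPM in Naive, 7.19 and 5.07 CPM in Th17, and 0.362 and 0 CPM in Th1, where 0 counts allow up to 0.164 CPM at 3 counts. The 3 cell types did not overlap, in the order Th17, Naive and Th1, and the Th17 mean of 6.13 ± 1.49 CPM was 5.34 times the Naive mean. Bank1 (chr3:136053363-136326066, minus strand) had 0.710 and 0.752 CPM in Naive, 2.67 and 2.65 CPM in Th17, and 0.796 and 2.45 CPM in Th1. The Th17 and Naive replicates of Bank1 were close to each other, but its Th1 libraries were far apart, one near the Naive level and the other near the Th17 level. The Th17 mean of Bank1 was 3.64 times the Naive mean.

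The transcription factors were nearly without counts in Naive. Ebf1 (chr11:44617317-45008091, plus strand) had 1 and 0 counts in Naive, 108 and 27 counts in Th17, and 5 and 5 counts in Th1. These are 0.0154 and 0 CPM, 1.80 and 1.52 CPM, and 0.0724 and 0.273 CPM. Both Th17 libraries stood clear of the other 4, and with replicates pooled the Th17 to Naive ratio was 145 (exact 95% interval 25.6 to 5767, counting error only), resting on 1 Naive count. Because Ebf1 was chosen for its level in Th17, that interval describes counting error and tests no difference. The Th17 mean was 9.63 times the Th1 mean. Pax5 (chr4:44524757-44710487, minus strand) had 1 and 0 counts in Naive, 42 and 2 counts in Th17, and 1 and 4 counts in Th1, so that its level in Th17 came almost wholly from replicate 1. In CPM the Th17 libraries held 0.700 and 0.113 and the higher Th1 library held 0.218. Pax5 has too few counts to have been tested, and its exons overlap those of Gm12462 and 5730488B01Rik on the other strand.

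Compared per kilobase of exon, which permits an order between genes, Cd79b and Cd79a led in Naive, with 3.40 ± 0.722 and 2.53 ± 0.714 CPM per kb, and in Th17, with 3.44 ± 0.514 and 3.33 ± 1.32 CPM per kb. These neighbours did not differ beyond their spread. Blk was the third in Th17 at 2.27 ± 0.554 CPM per kb, and the fourth in Naive at 0.425 ± 0.320 CPM per kb, behind Cd22 at 1.01 ± 0.278 CPM per kb. In Th1 the highest gene was Cd79a, at 0.949 ± 0.0202 CPM per kb, and Cd79b came next at 0.506 ± 0.200 CPM per kb. Ebf1 reached 0.170 ± 0.0202 CPM per kb in Th17, so that per unit of transcript length the factor stood far below the receptor chains.

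The make-up of the sum changed between cell types as well as its size. Blk formed 24.6% and 24.7% of the summed CPM in the Th17 libraries, compared with 10.3% and 3.72% in Naive and 5.98% and 0% in Th1. Ebf1 formed 6.16% and 7.40% in Th17 and at most 0.0901% in Naive. The Cd79b share was 32.7% and 28.6% in the Naive libraries, 18.6% and 21.4% in the Th17 libraries, and 8.61% and 14.3% in the Th1 libraries. Cd79a kept a share between 17.0% and 25.9% in all 6 libraries. The replicates of Th1 differed most, as Cd22 gave 44.5% in replicate 1 and 19.3% in replicate 2, while Bank1 gave 13.2% and 37.8%.

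**Figure D2:**
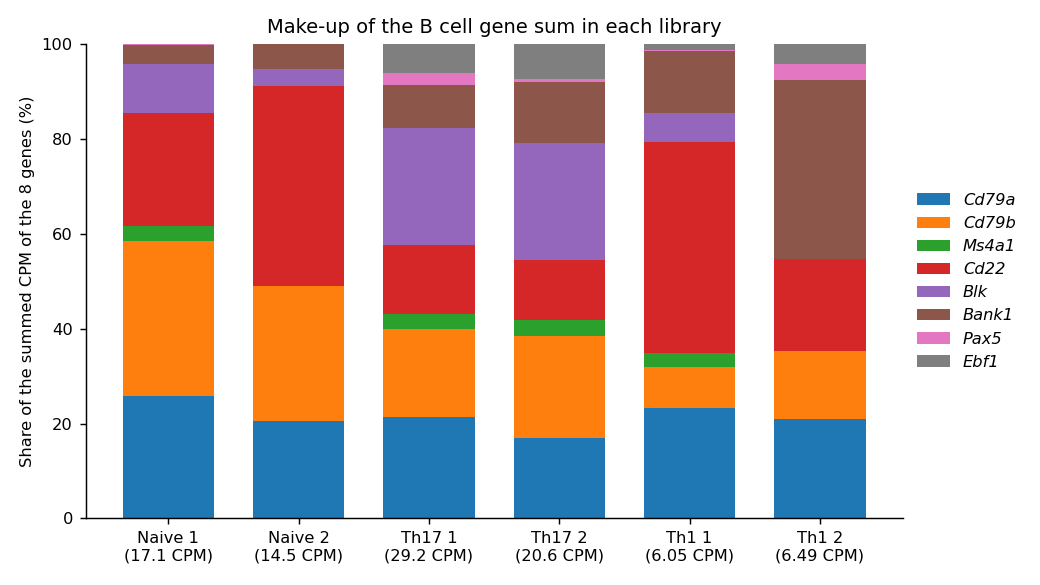
Share of each of the 8 genes in their summed CPM (y axis, percent, stacked to 100) for each library (x axis, with the summed CPM below the name). The Blk share was 24.6% and 24.7% in the Th17 libraries and at most 10.3% in the other 4, and the Ebf1 share was visible in Th17 and Th1 and not in Naive.

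Replicates of one cell type often differed by more than counting error. In 13 of the 24 pairs of replicates, the exact 95% interval for the share of a gene's counts that came from replicate 1 did not include the share set by the depths. These pairs covered 7 of the 8 genes, Ebf1 being the exception. Blk differed between replicates in all 3 cell types, as did Cd22, and Bank1 differed only in Th1. The exact intervals drawn for each library therefore understate the spread between libraries.

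Th1 compared with Naive is the one comparison that the choice of the genes did not use. It was tested across all 13607 genes with the quasi-likelihood test of edgeR and Benjamini-Hochberg (BH) adjustment, and a gene was called where the adjusted p was below 0.01 and the log2 fold change was above 1 or below -1. Of the 7 genes tested, 5 had a lower fitted level in Th1, and 1, Cd79b, was called lower, against 2.81% of all genes called lower and 4.64% called higher. Ms4a1, among the 5 lower, and Ebf1 passed the filter through their Th17 counts, since neither passed it with only the 4 libraries compared. Their values in Th1 compared with Naive are therefore given as a description. For Cd79b the log2 fold change was -2.56 (SE 0.522, edgeR BH-adjusted p = 0.00905). Its 2 Th1 libraries were both below its 2 Naive libraries. The call of Cd79b rested near its threshold and moved with the setting. Its edgeR BH-adjusted p was 0.0224 with only the 4 libraries compared in the fit and 0.0109 with all libraries thinned to equal depth. It was 0.00463 with at least 10 counts in every library, 0.000208 without the filter, and 3.52e-05 with DESeq2 in place of edgeR. Leaving out 1 library gave log2 fold changes between -3.03 and -2.05, and the call then held only without Naive replicate 2.

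The other 6 genes were not called in Th1 compared with Naive. For Cd79a, Cd22, Blk and Bank1 the edgeR BH-adjusted p was between 0.131 and 0.192. No p is given for Ms4a1 and Ebf1, which passed the filter through Th17. Cd79a had a log2 fold change of -1.18 (SE 0.487), Cd22 of -1.09 (SE 0.507) and Blk of -2.17 (SE 0.884). The Blk value was -0.97 without Naive replicate 1 and -8.38 without Th1 replicate 1, when the only Th1 library has no count. For Ms4a1 it was -1.07 (SE 1.20), with no count in 1 library of each cell type, and without Naive replicate 1 the sign turned. Bank1 was the gene whose fitted level was higher in Th1, at 1.38 (SE 0.656), together with Ebf1, where 10 Th1 counts stood against 1 Naive count, a ratio of 9.54 (exact 95% interval 1.36 to 414, counting error only). Without Th1 replicate 1 the Bank1 value was 2.10, and without Th1 replicate 2 it was 0.32.

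For the comparisons with Th17, which chose the genes, the fitted values are given as a description. In Th17 compared with Naive, log2 fold changes were 2.37 for Blk (SE 0.813), 1.90 for Bank1 (SE 0.653), 1.51 for Ms4a1 (SE 1.08), 0.41 for Cd79a (SE 0.470), 0.04 for Cd79b (SE 0.472) and -0.53 for Cd22 (SE 0.500). For Ebf1, with 1 Naive count, the pooled ratio above stands in place of a fitted value. In Th1 compared with Th17 all 7 fitted values were below 0, from -4.54 for Blk to -0.52 for Bank1. These directions were fixed in part by the choice of the genes and nothing is read from them.

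The other genes of the B cell program were taken from 5 lists, of surface and receptor genes, transcription factors, receptor signalling genes, precursor genes and plasma cell genes, with 69 of 76 listed symbols in the count data and 62 tested. In Th1 compared with Naive, 10 of the 62 were called lower and 3 higher, beside 2.81% and 4.64% of all genes, with a median log2 fold change of -0.61 beside -0.02 over all genes tested. In Th17 compared with Naive 5 were called lower and 3 higher, beside 1.43% and 4.01% of all genes, with a median of 0.16. In Th1 compared with Th17 9 were called lower and 2 higher, beside 2.83% and 2.7% of all genes, with a median of -0.94. These lists were written with earlier results for these libraries known, so their counts are not independent evidence of a direction in any of the comparisons. Many of the listed genes also serve T cells, as with Foxo1, Ikzf3, Bach2, Lef1 and Il7r, which are among the 5 most abundant of their lists.

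**Figure D3:**
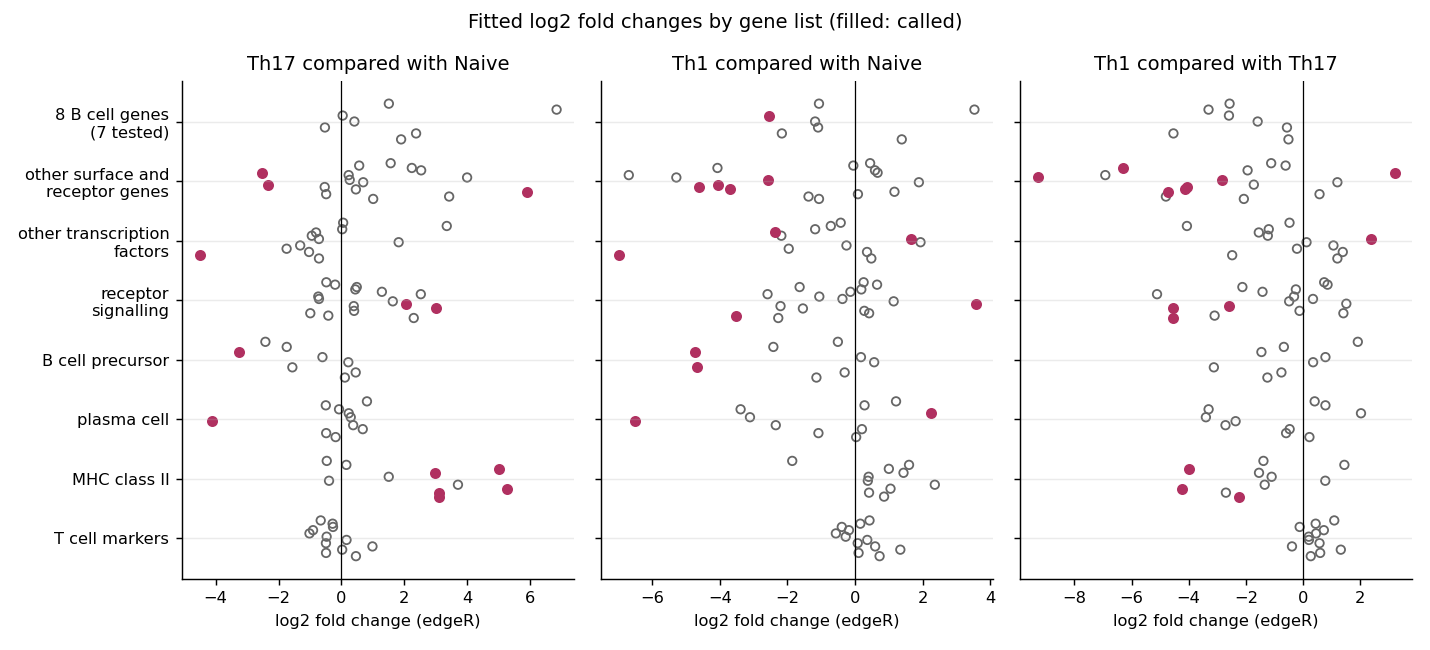
Fitted log2 fold changes (x axis) of each tested gene in 8 lists (y axis), one panel for each comparison, with filled points for called genes. The Th1 panels show the 10 and 9 other B cell genes called lower in Th1 than in Naive and Th17, and the T cell markers lay between -1.02 and 1.34 with none called. Points of the 8 B cell genes are drawn as open in the comparisons with Th17, which are not tested for them.

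Among surface and receptor genes, Cd72, an inhibitory partner of the B cell receptor, had 7.99 and 8.97 CPM in Naive, 11.3 and 11.4 CPM in Th17, and 0.405 and 0.763 CPM in Th1. In Th1 it was called lower than in Naive by edgeR, at a log2 change of -3.69 (SE 0.484, BH-adjusted p = 0.000997), and lower than in Th17. Fcrl1, an Fc receptor-like protein of B cells, had 3.50 and 5.16 CPM in Naive, 5.50 and 4.57 CPM in Th17, and 0.753 and 0.436 CPM in Th1, and was called lower in Th1 in both comparisons. Cd83, an activation marker, also was called lower in both, as the Naive libraries held 9.21 and 8.65 CPM, the Th17 libraries 5.79 and 6.26 CPM, and the Th1 libraries 0.232 and 0.436 CPM. Cxcr5, the follicle-homing chemokine receptor that T cells also use, was called lower than Naive in both cultures, with 20.2 and 28.0 CPM in Naive, 5.12 and 4.17 CPM in Th17, and 1.04 and 1.42 CPM in Th1.

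Ms4a4c, a relative of Ms4a1, was called lower in Th17 than in both other cell types, with 22.9 and 19.7 CPM in Naive, 3.22 and 4.0 CPM in Th17, and 30.1 and 26.9 CPM in Th1. Cd40, Fcrl5 and Siglecg instead stood highest in both Th17 libraries. Cd40, the receptor through which helper T cells stimulate B cells and which myeloid cells also carry, had 0.108 and 0.107 CPM in Naive, 6.49 and 6.43 CPM in Th17, and 0.333 and 0 CPM in Th1. It was called higher in Th17 than in Naive (log2 fold change 5.89, SE 0.908, edgeR BH-adjusted p = 0.00269) and lower in Th1 than in Th17. Fcrl5 had 2.10 and 1.75 CPM in Th17 against 0.154 and 0.0537 CPM in Naive and no count in Th1, where 3 counts are 0.0434 and 0.164 CPM, and was called lower in Th1 than in Th17. Siglecg, an inhibitory lectin of B cells, was called lower in Th1 than in Th17 as well, with 2.82 and 1.58 CPM in Th17 and 0.0290 and 0 CPM in Th1. Cr2 and Fcer2a, markers of mature B cells named here after their values were seen, were at most 0.169 and 0.200 CPM in every library.

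Among the transcription factors, Pou2af1, a coactivator of octamer factors, was called lower in Th1 than in Naive, from 19.8 and 27.5 CPM to 5.02 and 2.67 CPM. Bcl11a was called lower in both cultures than in Naive, with 56.0 and 12.8 CPM in Naive, 1.63 and 1.35 CPM in Th17, and 0.13 and 0.436 CPM in Th1. Irf8, which interferon induces in many cells, took the opposite direction, as it was called higher in Th1 than in Naive and in Th17, with 161 and 111 CPM in Th1. Between Th17 and Naive 1 of the 12 factors was called, between Th1 and Naive 3, and between Th1 and Th17 1, beside 5.43%, 7.45% and 5.53% of all genes called in either direction.

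Of 16 receptor signalling genes, Pik3ap1, an adaptor for PI3 kinase, and Fcgr2b, the inhibitory Fc receptor, were called higher in Th17 than in Naive. Pik3ap1 was called higher in Th1 than in Naive as well, with 3.52 and 1.88 CPM in Naive, 11.5 and 11 CPM in Th17, and 33.0 and 22.4 CPM in Th1. Fcgr2b had 2.68 and 1.13 CPM in Naive, 10.6 and 20.2 CPM in Th17, and 0.709 and 0.382 CPM in Th1, and it was called lower in Th1 than in Th17. Blnk, the linker that joins the receptor to downstream enzymes, had 0.416 and 0.269, 1.82 and 1.63, and 0.0869 and 0 CPM, and Lyn, a Src family kinase also used by myeloid cells, had 14.7 and 5.96, 12.5 and 14.3, and 1.93 and 1.91 CPM. Both were called lower in Th1 than in Th17. Btk, the kinase of B cell and myeloid signalling, was called lower in Th1 than in Naive, from 31.0 and 8.87 CPM to 1.97 and 0.927 CPM. Prkcb, Swap70, Ralgps2 and Stap1, among the most abundant of the list, were not called in any comparison.

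The precursor and plasma cell lists had 8 and 10 genes tested. Sox4, a factor of lymphocyte precursors, had 90.8 and 82.5 CPM in Naive, 12.6 and 5.02 CPM in Th17, and 2.68 and 2.83 CPM in Th1, and was called lower in both cultures. Igj, the joining chain of secreted antibody, had 99.2 and 29.0, 3.62 and 3.61, and 0.579 and 0.654 CPM, and was also called lower in both. Prdm1, a factor of plasma cells and effector T cells, was called higher in Th1 than in Naive, with 30.6 and 31.4 CPM against 5.74 and 9.94 CPM. Of the other precursor genes, Dntt, the terminal transferase, ranged from 1.90 to 12.6 CPM and Cd93 from 2.67 to 14.6 CPM over the 6 libraries, and neither was called in any comparison. Rag1, Rag2, Vpreb1, Vpreb2 and Igll1, named here after their values were seen, did not exceed 0.699 CPM in any library.

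The MHC class II genes present antigen in B cells, dendritic cells and macrophages. Their sum over 10 genes was 106 and 88.0 CPM in Naive, 314 and 452 CPM in Th17, and 82.4 and 151 CPM in Th1. In Th17 compared with Naive 5 of the 10 were called higher, namely Cd74, H2-Aa, H2-Eb1, H2-DMb2 and Ciita, beside 4.01% of all genes called higher. H2-Aa, an alpha chain, had 2.39 and 0.269 CPM in Naive, 33.3 and 76.1 CPM in Th17, and 3.29 and 1.80 CPM in Th1. Cd74, H2-Aa and H2-Eb1 were called lower in Th1 than in Th17, beside 2.83% of all genes, and none of the 10 was called in Th1 compared with Naive, where 9 had a fitted change above 0.

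Summed markers of several other cell types were also highest in both Th17 libraries, and their part in the B cell gene values was not tested. The 11 neutrophil markers with a row summed to 329 and 207 CPM in Naive, 3289 and 2864 CPM in Th17, and 60.4 and 65.4 CPM in Th1, with all 11 having counts and 8 of them above the other libraries in both Th17 libraries. Mpo, at 264 and 173 CPM, made up most of the Naive sum. It was called lower in Th17 than in Naive, with 74.2 and 58.4 CPM in Th17. The 11 macrophage and monocyte markers summed to 45.4 and 23.0, 265 and 811, and 15.3 and 12.9 CPM, again with 8 highest in both Th17 libraries. The 8 conventional dendritic cell markers summed to 25.8 and 45.7 CPM in Th17 and to between 5.70 and 18.8 CPM in Naive and Th1, which overlapped, with 1 of the 8, Batf3, highest in both Th17 libraries and Itgax at 1.57 and 23.7 CPM in Th17. Of 10 listed γδ T cell symbols, 3 had a row. Their sum was 58.6 and 41.2 CPM in Th17 and at most 18.9 CPM elsewhere. Both Th17 libraries were highest for 5830411N06Rik and Cd163l1, whereas Sox13 was lower in Th17 than in Naive. The 10 stromal markers summed to 19.3 and 16.0 CPM in Th17 and at most 4.27 CPM elsewhere. Of these, 2 were at 0 in every library and 3, Lum, Pdpn and Dcn, were highest in both Th17 libraries. Lum, at 7.87 and 4.62 CPM, and Pdpn, at 6.49 and 8.85 CPM, made up most of the Th17 sum. Pdgfrb was lower in Th17, at 2.45 and 0.789 CPM, than in Naive, at 3.44 and 2.90 CPM.

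Of the other lists, the erythroid, plasmacytoid dendritic cell and NK cell sums were highest in both Naive libraries. Erythroid markers summed to 250 and 31.8 CPM in Naive and at most 3.72 CPM in the cultures, with 4 of 10 at 0 everywhere. Plasmacytoid dendritic cell markers summed to 112 and 158 CPM in Naive and between 42.8 and 60.3 CPM in the cultures. Most of that Naive sum was Pacsin1, at 64.7 and 117 CPM. Runx2, of the same list, was highest in Th1, at 33.0 and 31.2 CPM. Siglech, named here after its values were seen, had 0.370 and 0.269 CPM in Naive and no count in the cultures. NK cell markers summed to 49.1 and 43.9 CPM in Naive and between 15.3 and 29.7 CPM in the cultures, with 2 of 7 at 0 everywhere, and CD8 T cell markers lay between 5.64 and 12.3 CPM in all libraries.

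**Figure D4:**
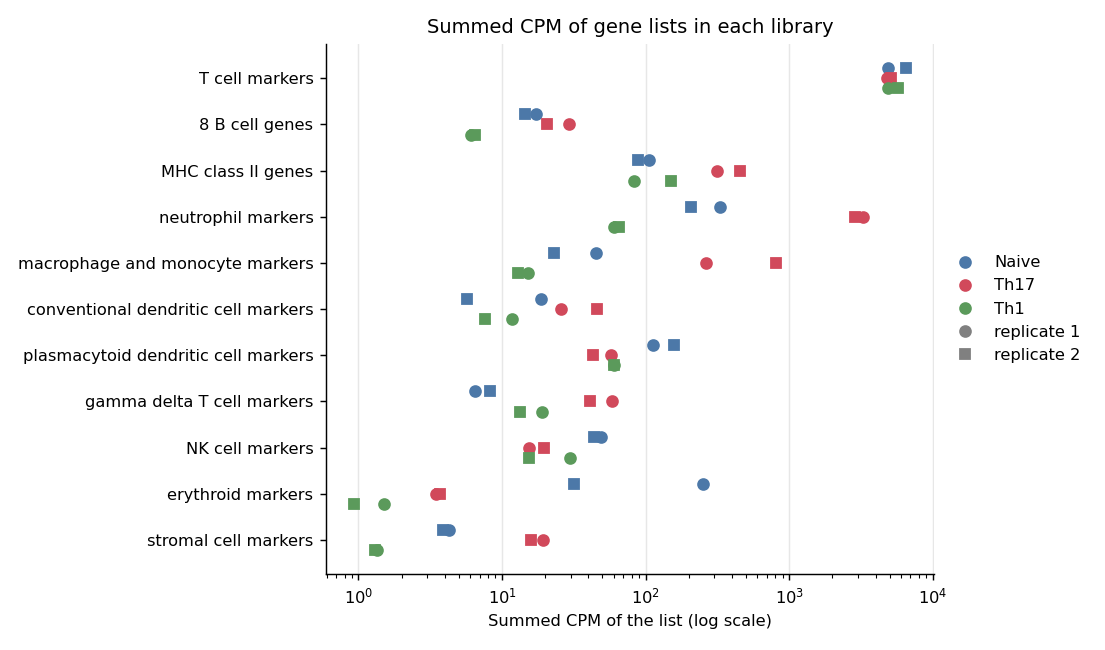
Summed CPM (x axis, log scale) of the 8 B cell genes, the T cell markers, the MHC class II genes and 8 lists of markers of other cell types (y axis) in each library, with circles for replicate 1 and squares for replicate 2. Neutrophil and macrophage sums were highest in Th17, at 3289 and 2864 CPM and at 265 and 811 CPM, the 8 B cell genes spanned 6.05 to 29.2 CPM, and the T cell markers stayed between 4808 and 6540 CPM.

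The profile common to the genes was summarised as the mean of the standardized log2 CPM of the 7 genes tested, over the 6 libraries, and likeness is given as Pearson's r, a description with no test over libraries that also share their depth pattern. Blk was most like the common profile (r = 0.943), then Cd79a (0.924), Cd79b (0.815) and Ms4a1 (0.815), while Ebf1 (0.635), Cd22 (0.463) and Bank1 (0.416) were least like it. Between single genes, Cd79a with Cd79b had r = 0.931 and Bank1 with Ebf1 had r = 0.925, and the lowest value was -0.507, for Cd22 with Bank1. The receptor chains were thus most alike to each other, and Bank1 to Ebf1, over these 6 libraries.

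The 10 genes most like the common profile had r between 0.987 and 0.995. They were Gm15545, Cebpe, B230217O12Rik, Siglecg, Usf1, D1Ertd622e, Lrrk2, Zfand5, Cldn15 and Prlr. Siglecg, an inhibitory lectin of B cells, was the member of the B cell lists among them. Cebpe, a factor of granulocyte maturation, had 3.66 and 1.72 CPM in Naive, 31.3 and 19.5 CPM in Th17, and 0.318 and 0.218 CPM in Th1, with r = 0.994. The likeness takes no account of size, since Usf1, a widely expressed factor, reached r = 0.990 with values between 79.4 and 100.6 CPM.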

How the data were processed

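RNA was measured in mouse Naive, Th17 and Th1 cells, with 2 libraries for each cell type. Per the labels, polyadenylated RNA was reverse transcribed by Smart-seq2 and sheared cDNA was made into libraries. The authors mapped reads to mm10 with Hisat2 (2.2.1), removed duplicates and counted reads per gene with HTSeq (0.13.5), and the deposited values are raw counts per gene, 1 set per library, without normalization. The methods name default HTSeq parameters, whereas the supplementary code sets the option for reverse-stranded reads and shows no removal of duplicates.

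The counts were fitted with edgeR (4.0.16, R 4.3.3), using filterByExpr by cell type, TMM factors (0.862 to 1.09) and the quasi-likelihood test with cell type as the only term over all 6 libraries, which left 13607 of 24223 genes, 6377 having no count in any library. A gene was called where the BH-adjusted p was below 0.01 and the log2 fold change exceeded 1 in size. CPM used raw library sums. Intervals are exact (Clopper-Pearson, 95%) and, like the limit of 3 counts, cover counting error only. Gene coordinates and exon lengths came from GENCODE vM21 (GRCm38). The fit was also run on simulated counts, but the outcome of that run is not reported here and no accuracy is claimed from it.

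The genes and lists were chosen with earlier results of these data known. Genes named are the 8 B cell genes, the 5 of each list with the highest mean CPM, up to 5 called genes per B cell list and comparison with the largest change, and the 10 most like the common profile, and others are marked where they are named. Some genes that meet this rule are not reported here. Jchain and Fcmr were listed also under their older symbols and were analysed under these, Igj and Faim3. The immunoglobulin constant genes Ighm, Ighd, Igkc, Iglc1 and Iglc2 were listed, matched no row of the counts used and are not analysed here. Alternatives were DESeq2 (1.42.0), RLE factors, library size alone, 2 other filters, a replicate block, only the 4 libraries compared, thinning, an adjusted p under 0.05, TMM-scaled CPM and leaving out each library. Differences between replicates 1 and 2 correlated over genes at -0.233 (Naive and Th17), 0.166 (Naive and Th1) and 0.078 (Th17 and Th1). These weak correlations gave no sign of pairing by replicate number but cannot exclude it.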

Additional observations from a re-analysis of the deposited data

How the results depend on the processing

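With main counts of 739, 1014 and 752 genes called in Th17 compared with Naive, Th1 compared with Naive and Th1 compared with Th17, DESeq2 called 1717, 1917 and 1797, no filter on low counts 2154, 2259 and 2232, at least 10 counts in every library 343, 674 and 411, an adjusted p under 0.05 2063, 2164 and 2112, and leaving out 1 library 319 to 885, 516 to 939 and 266 to 1016. For the other B cell genes, 8, 13 and 11 called became 14, 21 and 27 with DESeq2, 17, 24 and 33 without the filter, and 15, 23 and 30 at an adjusted p under 0.05. They became 5 in Th17 compared with Naive and 4 in Th1 compared with Th17 with at least 10 counts, and 17 in Th1 compared with Th17 with only the 4 libraries compared. For MHC class II genes, 5, 0 and 3 called became 3 in Th17 compared with Naive with at least 10 counts, 3 in Th1 compared with Naive without the filter, and, in Th1 compared with Th17, 5 with DESeq2, 6 without the filter and 5 at an adjusted p under 0.05.

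With the replicate number as a block, a pairing that was neither seen nor excluded, 1035, 1402 and 1041 genes were called in the same order of comparisons. The other B cell genes called became 13 in Th17 compared with Naive and 19 in Th1 compared with Th17. MHC class II genes called in Th1 compared with Naive became 1. Cd79b kept its call at -2.57 (edgeR BH-adjusted p = 0.00584). Leaving out 1 library gave 1 to 11, 9 to 13 and 4 to 19 other B cell genes and 3 to 6, 0 to 1 and 0 to 4 MHC class II genes. The fewest other B cell genes in Th17 compared with Naive, 1, came without Th17 replicate 1, while 4 came without Th17 replicate 2 and 5 without Naive replicate 2. In Th1 compared with Th17 there were 4 without Th17 replicate 1, 5 without Th17 replicate 2, 6 without either Th1 replicate, 17 without Naive replicate 1 and 19 without Naive replicate 2.

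Of the 8 B cell genes, the count called in Th1 compared with Naive was 1 and became 2 without the filter, with Blk added, and 0 with only the 4 libraries compared and with thinning. Leaving out 1 library gave 0 to 1, the call of Cd79b holding only without Naive replicate 2. The log2 fold change of Cd79b lay between -3.03 and -2.05 in those fits. Ms4a1 turned from -1.07 to 5.34 without Naive replicate 1, in a range of -6.39 to 5.34. The summed CPM was 6.99 in Th1 with TMM-scaled library sizes. Leaving out a library leaves 1 in a cell type, which is assumed to vary like the others. For these shifts the cause was not tested. Pax5, Ebf1, Ms4a1 and Blk had no count in at least 1 library, each time replicate 2, the shallower one. For Ms4a1 in Naive and Blk in Th1 the replicates differed beyond counting error. They had 33 and 0 counts and 25 and 0 counts, where equal levels would give 7.36 and 5.25 counts in replicate 2. What lay behind these zeros was not tested.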
